A study of Homo sapiens with 4 samples.

Results

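Long intergenic noncoding RNAs (lincRNAs) are transcripts from between protein-coding genes that carry no long reading frame. Most are spliced and polyadenylated like mRNAs, many stay in the nucleus and are short-lived, and a few serve as scaffolds of nuclear bodies, as sponges for RNA-binding proteins or as precursors of miRNAs. In colon cancer cells lincRNAs such as UCA1 and CRNDE are known for their raised levels in tumours. The set described here held 245 of the 58735 genes in the deposited count tables. They are the genes of biotype lincRNA whose mean level over all 4 libraries was at least 2 CPM (counts scaled to the library total), leaving out named host genes of small nucleolar RNAs (snoRNAs). Of 7629 lincRNA rows, 250 passed that level and 5 of these were excluded by name. The members were thus chosen by their mean level over both groups, which is given only as a description. A gene with little RNA in one group could pass through the other, and 56 of the 245 averaged under 2 CPM in RBM25_sh and 12 under 2 CPM in control_sh.

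The cells were HCT116, an established human colon cancer line. In 2 libraries the cells carried an shRNA against RBM25 (RBM25_sh), and in 2 they carried a control shRNA (control_sh). RBM25 is an RNA-binding protein that takes part in the choice of splice sites together with the U1 snRNP. The sources used here do not give the hairpin sequences, the time after their delivery or whether single clones were used. No label states whether the libraries of a group stem from separate cultures, so the p-values below cover only the spread among these 4 libraries, which may be technical. RNA was measured over whole cultures, so fewer cells expressing a gene and less of its RNA per cell cannot be told apart.

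Total counts per library were 15528274 and 16335555 for RBM25_sh and 15528869 and 16982663 for control_sh. RBM25 itself was 3.39-fold lower in the RBM25_sh libraries (44.0 and 35.7 CPM) than in the control_sh libraries (155 and 115 CPM), with an edgeR adjusted p of 0.0195 that became 0.119 without RBM25_sh replicate 1 and 0.202 without RBM25_sh replicate 2. Markers of colon epithelium summed to 4238 and 5302 CPM in RBM25_sh and 3468 and 4445 CPM in control_sh. Of these 11 markers 4 averaged under 1 CPM, among them CDX1 at 0. Endothelial and immune markers summed to at most 1.87 CPM in any library. Fibroblast markers summed to 36.2 and 46.0 CPM in RBM25_sh and 39.9 and 65.5 CPM in control_sh. Of these 5 markers 4 averaged under 1 CPM, among them COL1A2 and LUM at 0. The 3 neural markers summed to 46.1 and 51.5 CPM in RBM25_sh and 82.2 and 69.0 CPM in control_sh, with 2 of the 3 under 1 CPM on average. Within each group, replicate 2 differed from replicate 1 along GC content (Spearman rho across 10400 genes of 0.837 in RBM25_sh and 0.824 in control_sh, a description). The log2 fold change of RBM25_sh over control_sh also followed GC content across these genes (rho of −0.305). Values after a correction for GC content are therefore given beside the main ones. The correction removes each library's own trend, and with it any difference between groups that follows GC content.

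Across the 245 lincRNAs, decreases outnumbered increases after RBM25 knockdown. All 245 passed edgeR's filter on low counts. In the edgeR quasi-likelihood test with Benjamini-Hochberg adjustment over the 16091 genes tested, called at an adjusted p under 0.05, 26 lincRNAs fell (10.6%) and 3 rose (1.22%), while 216 did not pass. Over all genes tested, 2.4% were called lower and 0.653% higher. The share called lower among the lincRNAs was above that background, and the share called higher rested on 3 genes. Of the 26 that fell, 14 averaged under 2 CPM in RBM25_sh and belonged to the set only through control_sh, and 2 of the 3 that rose belonged only through RBM25_sh, so these counts describe the set as chosen. The median log2 fold change (RBM25_sh over control_sh) was −0.37 for the lincRNAs and −0.04 for all genes tested, and 163 of the 245 lincRNAs had a value below 0. Protein-coding genes with a mean of at least 2 CPM had a median of −0.0041, with 2.39% called lower and 0.576% called higher. Of these 11802 genes, 328 averaged under 2 CPM in RBM25_sh and 70 in control_sh. Their median level was 35.6 CPM against 4.10 CPM for the lincRNAs, so they were not matched to the lincRNAs by level.

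Called lincRNAs changed by 1.59 to 3.27 on the log2 scale. Without RBM25_sh replicate 1, 11 of the 29 calls were lost, and 12 were lost without RBM25_sh replicate 2. Leaving out control_sh replicate 1 or control_sh replicate 2 lost 0 of them and raised the number of called lincRNAs to 63 or 55. In all, 13 of the 29 calls held whichever single library was left out. The correction for GC content gave 70 lincRNAs lower (28.6%) and 22 higher (8.98%), and all 29 calls were kept. With that correction 16.5% of all genes tested were lower and 11.3% higher, so the lincRNA share was above the background on the lower side and below it on the higher side. The groups did not overlap in 115 lincRNAs with lower RBM25_sh values (46.9%, background 27.9%) and in 49 with higher ones (20%, background 23.9%).

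**Figure D1:**
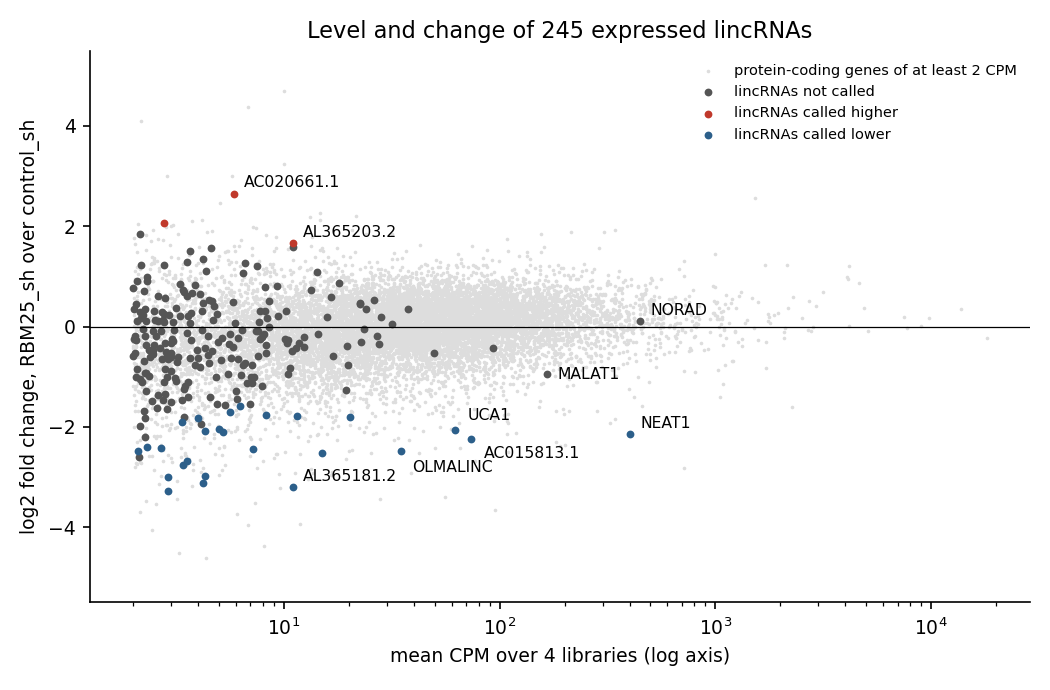
Each point is 1 gene, with the mean CPM over the 4 libraries on a log axis and the log2 fold change of RBM25_sh over control_sh on the vertical axis. Of the 245 lincRNAs, 26 called lower are in blue and 3 called higher in red, over grey points for protein-coding genes of at least 2 CPM; NEAT1 (−2.15) is the most abundant lincRNA called lower, while NORAD lies at 0.10.

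The lincRNAs together took a smaller share of each RBM25_sh library. They received 0.220% and 0.211% of all counts in the RBM25_sh libraries, against 0.319% and 0.373% in the control_sh libraries. Both RBM25_sh values lay below both control_sh values. NEAT1 alone received 0.0134% and 0.0144% in RBM25_sh, against 0.0418% and 0.0919% in control_sh. Without NEAT1 the other 244 lincRNAs still stood at 0.207% and 0.196% in RBM25_sh, against 0.278% and 0.281% in control_sh. An exact two-sided permutation test of 2 libraries against 2 cannot give a p below 0.333, so these shares are given as measured values.

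**Figure D2:**
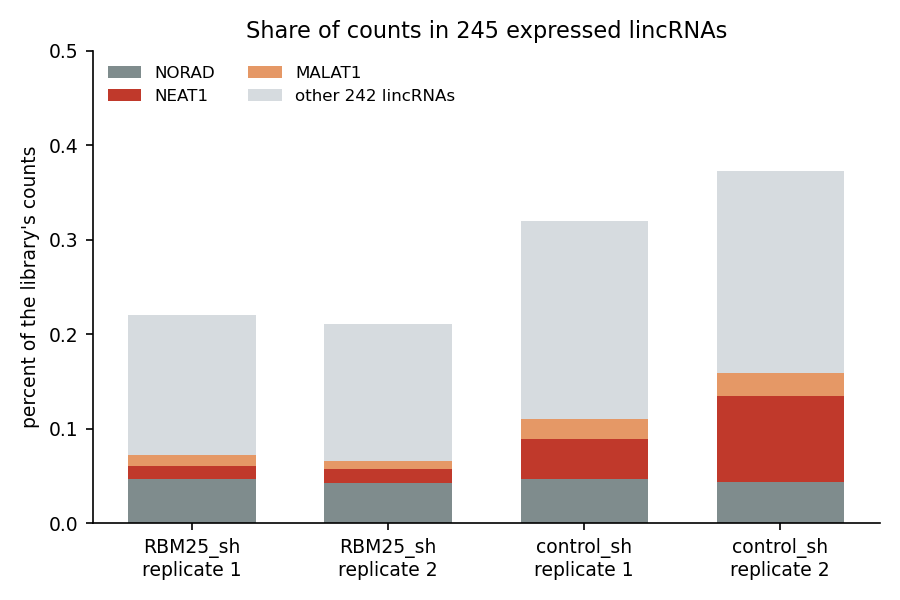
Bars show the percent of each library's counts that fell on the 245 lincRNAs, split into NORAD, NEAT1, MALAT1 and the other 242. The RBM25_sh bars end at 0.220% and 0.211% and the control_sh bars at 0.319% and 0.373%, while the NORAD segment spans 0.0429% to 0.0469% in all 4.

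Levels can be compared between genes only per length, in FPKM (counts scaled to gene length and library size, as deposited). NORAD had the highest mean over the 4 libraries (82.3 FPKM), followed by AC105460.1 (58.1), MALAT1 (18.0), NEAT1 (16.6) and UCA1 (14.2). NORAD had 92.2 and 80.6 FPKM in RBM25_sh and 83.0 and 73.5 FPKM in control_sh, and AC105460.1 had 53.9 and 42.9 FPKM in RBM25_sh and 73.0 and 62.5 FPKM in control_sh. NORAD therefore ranked above AC105460.1 in every library. The places of MALAT1, NEAT1 and UCA1 depended on the group, since NEAT1 spanned 6.17 to 36.7 FPKM and UCA1 spanned 5.21 to 24.9 FPKM over the 4 libraries. The remaining values below are CPM after edgeR's TMM scaling, and differences are log2 fold changes ± SE.

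Among nuclear-retained lincRNAs, NEAT1, the scaffold RNA of paraspeckles, fell. NEAT1 (ENSG00000245532, GRCh38 chr11:65422774-65445540, plus strand) had 139 and 150 CPM in RBM25_sh and 410 and 871 CPM in control_sh. The groups did not overlap, and the control_sh libraries differed from each other more than the RBM25_sh libraries did. The fold change was −2.15 ± 0.37 (4.44-fold lower, edgeR adjusted p = 0.0212). Leaving out control_sh replicate 2 gave −1.51 and leaving out control_sh replicate 1 gave −2.59, and the call held without any single library, with edgeR adjusted p of at most 0.0391. On log2 FPKM with limma-trend the adjusted p was 0.0613 (pseudocount 1) and 0.0545 (pseudocount 0.1). The counts are totals over all NEAT1 transcripts, so its short and long forms, which share a start, were not separated.

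MALAT1 (ENSG00000251562, chr11:65497688-65506516, plus strand), the RNA of nuclear speckles that lies next to NEAT1, had 130 and 92.6 CPM in RBM25_sh and 208 and 223 CPM in control_sh. Its groups did not overlap, but the fold change of −0.95 ± 0.29 did not pass (edgeR adjusted p = 0.101). After the GC correction it was −1.21 ± 0.19 with an edgeR adjusted p of 0.00294. With 1 library left out, the fold change was −1.20 without RBM25_sh replicate 1 and −0.69 without RBM25_sh replicate 2. It was −0.99 without control_sh replicate 1 and −0.90 without control_sh replicate 2. The ratio of NEAT1 to MALAT1 in FPKM was 0.415 and 0.627 in RBM25_sh and 0.765 and 1.52 in control_sh, so both RBM25_sh ratios lay below both control_sh ratios. FTX, a noncoding RNA of the X-inactivation centre, had overlapping values of 25.3 and 20.7 CPM in RBM25_sh and 30.1 and 17.7 CPM in control_sh. PVT1, which neighbours the oncogene MYC, had 41.9 and 42.8 CPM in RBM25_sh and 27.1 and 39.2 CPM in control_sh (0.35 ± 0.30, edgeR adjusted p = 0.533). With the lincRNA row of LINC-PINT at −0.08, 1 of the 5 measured lincRNAs of the nuclear list fell and 0 rose. For comparison, 10.6% of the 245 lincRNAs and 2.4% of all genes tested were called lower.

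NORAD (ENSG00000260032, chr20:36045622-36050960, minus strand) is a cytoplasmic RNA that binds PUMILIO proteins. It had 487 and 447 CPM in RBM25_sh and 461 and 409 CPM in control_sh. These ranges overlapped, with a fold change of 0.10 ± 0.26 (edgeR adjusted p = 0.856) that lay at −0.01 with library totals and at −0.09 after the GC correction. CYTOR, the other measured member of the cytoplasmic list, had 19.7 and 20.3 CPM in RBM25_sh and 12.6 and 13.8 CPM in control_sh. Its groups did not overlap, yet the change of 0.60 ± 0.29 did not pass (edgeR adjusted p = 0.272).

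UCA1, a lincRNA raised in bladder and colon tumours, also fell. It (ENSG00000214049, chr19:15828206-15836326, plus strand) had 24.6 and 22.5 CPM in RBM25_sh and 108 and 89.3 CPM in control_sh. Replicates lay close together within each group and the groups did not overlap. The fold change was −2.06 ± 0.28 (4.18-fold lower, edgeR adjusted p = 0.0112). The adjusted p was 0.0619 without RBM25_sh replicate 1 and 0.0703 without RBM25_sh replicate 2, with fold changes of −2.11 and −1.96.

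Of the 7 measured lincRNAs studied in colon cancer, UCA1 fell, 0 rose and 6 did not pass, where 10.6% of the 245 lincRNAs and 2.4% of all genes tested fell. CRNDE, named for its raised level in colorectal neoplasia, had 5.09 and 4.46 CPM in RBM25_sh and 10.9 and 10.7 CPM in control_sh. It was lower in both RBM25_sh libraries without passing (−1.18 ± 0.32, edgeR adjusted p = 0.0792), and passed after the GC correction (−1.37, edgeR adjusted p = 0.00422). LINC00460 (−0.19 ± 0.36) and LINC01234 (0.06 ± 0.28) were near 0 on the log2 scale.

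LINC00467, whose transcripts encode a small mitochondrial protein in colorectal cancer cells, had 4.96 and 5.16 CPM in RBM25_sh and 19.1 and 15.9 CPM in control_sh. It fell without overlap between the groups (−1.79 ± 0.31, edgeR adjusted p = 0.0219), although the adjusted p was 0.127 without RBM25_sh replicate 1 and 0.0904 without RBM25_sh replicate 2. On log2 FPKM with limma-trend its adjusted p was 0.0574 (pseudocount 1) and 0.0535 (pseudocount 0.1). CRNDE was the other measured row of the list of small-protein genes. Among 6 measured lincRNAs induced by p53 or DNA damage, NEAT1 was the 1 that fell and 0 rose. PURPL, a p53-induced RNA that restrains p53, had 2.55 and 1.98 CPM in RBM25_sh and 5.00 and 4.74 CPM in control_sh (−1.11 ± 0.39, edgeR adjusted p = 0.146). After the GC correction PURPL was called lower (−1.43, edgeR adjusted p = 0.0144), which made 2 of the 6 lower. MIR34AHG, the host of the p53-induced miR-34a, stood at 0.31 ± 0.31. Among 4 measured hypoxia-induced lincRNAs, NEAT1 and UCA1 fell, MALAT1 did not pass, and MIR210HG overlapped between groups (0.12 ± 0.46). Lists share members, so their counts are not separate observations. These short lists stand against 10.6% of the 245 lincRNAs and 2.4% of all genes tested called lower in the main test. After the GC correction these shares were 28.6% and 16.5%.

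OLMALINC, first described in oligodendrocytes, lies 8679 bases from SCD, the gene of stearoyl-CoA desaturase. It (ENSG00000235823, chr10:100373513-100454043, plus strand) had 11.9 and 8.98 CPM in RBM25_sh and 60.5 and 55.5 CPM in control_sh. All RBM25_sh values were far below the control_sh values, and the fold change was −2.48 ± 0.31 (5.56-fold lower, edgeR adjusted p = 0.00707). SCD itself did not pass (0.14 ± 0.28, edgeR adjusted p = 0.817). AC015813.1, a lincRNA of unknown role that lies 780 bases from VEZF1, had 26.3 and 23.9 CPM in RBM25_sh and 134 and 104 CPM in control_sh (−2.25 ± 0.29, edgeR adjusted p = 0.00818). VEZF1, a zinc finger gene, was at −0.06 ± 0.30. LINC00941, studied as a tumour-promoting lincRNA, had 5.03 and 3.76 CPM in RBM25_sh and 29.6 and 20.6 CPM in control_sh (−2.51 ± 0.35, edgeR adjusted p = 0.0114). The calls of OLMALINC, AC015813.1 and LINC00941 held without any single library, with edgeR adjusted p of at most 0.0418. On log2 of FPKM plus 1 with limma-trend, LINC00941 had an adjusted p of 0.0502.

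**Figure D3:**
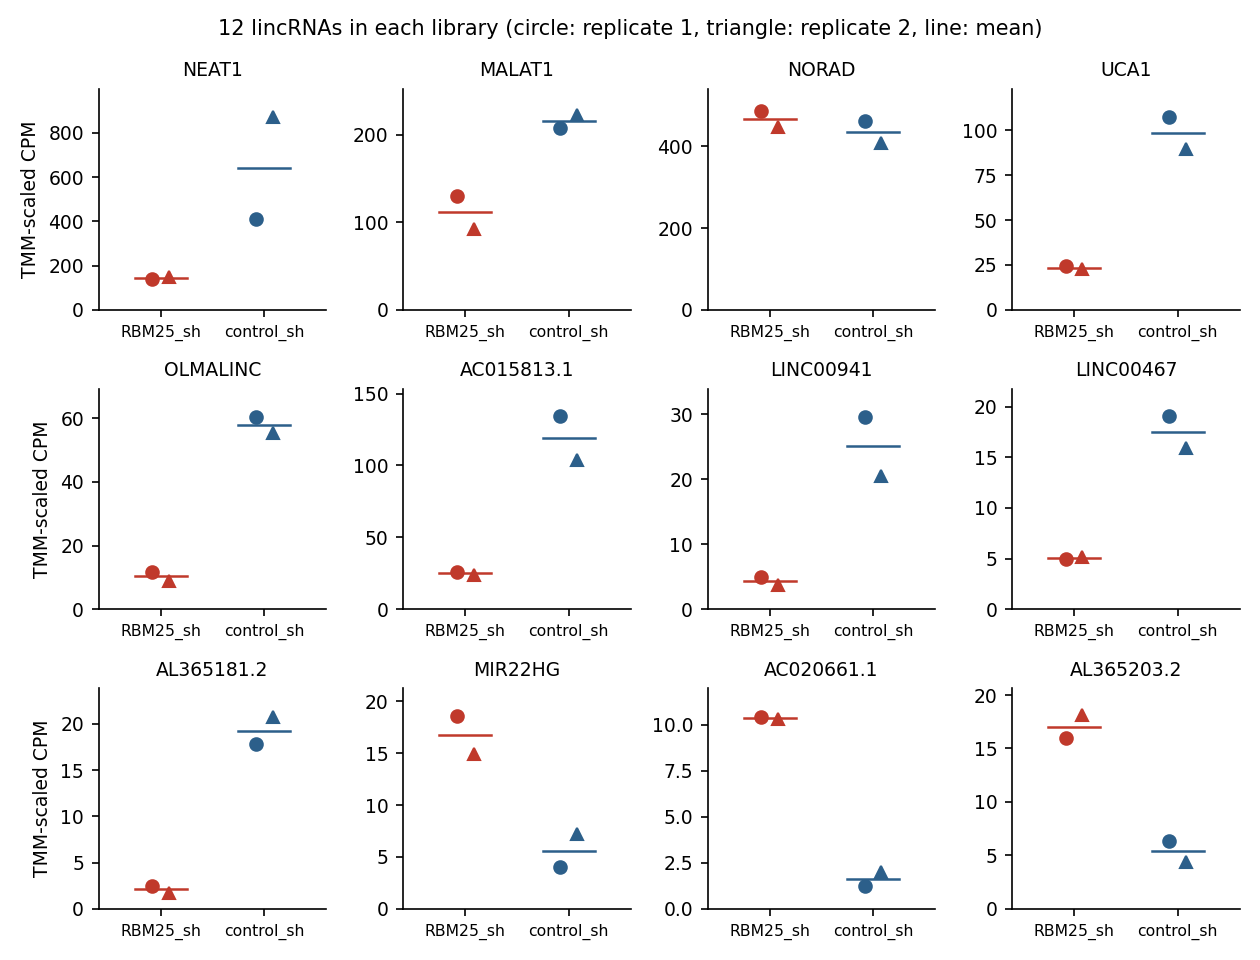
TMM-scaled CPM of 12 lincRNAs in each of the 4 libraries, RBM25_sh in red and control_sh in blue, with circles for replicate 1, triangles for replicate 2 and lines for the group means. NORAD overlaps between groups, NEAT1 has its widest replicate gap in control_sh (410 and 871 CPM), and MIR22HG, AC020661.1 and AL365203.2 are higher in RBM25_sh.

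AC007405.3 had 0.402 and 0.637 CPM in RBM25_sh and 5.31 and 4.91 CPM in control_sh, from 6 and 10 counts in RBM25_sh and 84 and 88 counts in control_sh. This was the largest fold change of the set (−3.27 ± 0.48, 9.67-fold lower, edgeR adjusted p = 0.0144). Its nearest tested coding gene, ERICH2, which lies 5638 bases away, also fell (−4.93 ± 0.90, edgeR adjusted p = 0.025). AL365181.2 had 2.48 and 1.72 CPM in RBM25_sh and 17.8 and 20.8 CPM in control_sh (−3.20 ± 0.36, 9.16-fold lower, edgeR adjusted p = 0.00597). AC108174.1 (−3.12 ± 0.50), LINC02454 (−3.00 ± 0.46), LINC02458 (−2.97 ± 0.46) and LINC02086 (−2.77 ± 0.43) followed, with groups that did not overlap. Their fold changes spanned −3.92 to −2.50 with any single library left out. Their RBM25_sh means were 0.840, 0.622, 0.944 and 0.850 CPM. Each thus belonged to the set only through control_sh, and its low side rests on few counts. FLJ42351 (−2.47 ± 0.51) and C6orf99 (−2.42 ± 0.46) also fell, but their edgeR adjusted p without RBM25_sh replicate 1 was 0.158 and 0.0808. With limma-voom FLJ42351 had an adjusted p of 0.0541. AC007405.3, FLJ42351 and C6orf99 likewise averaged under 2 CPM in RBM25_sh and belonged to the set only through control_sh.

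Several of the called lincRNAs share their place with another gene, and since no source states a strand-specific count, reads of overlapping genes cannot be told apart. Of the 29 called lincRNAs, 9 overlapped another tested gene. LINC02454 lies within AC025419.1 (−2.69 ± 0.48) on the opposite strand of chromosome 12, so these calls may count the same reads. AC026401.3 (−2.45 ± 0.39) is a single-exon gene inside NDE1 on the same strand, and NDE1, a centrosome gene, was itself lower (−1.56 ± 0.28, edgeR adjusted p = 0.0227). Chromosome 12 held 19 of the 245 lincRNAs and 5 of the 26 that fell, of which LINC02454 and AC025419.1 are one overlapping pair. It is named because it held the most decreases, and the share over all its tested genes is not given. Among the 160 lincRNAs that overlap no tested gene, 18 fell (11.2%) and 2 rose (1.25%), so the set without overlaps had much the same shares.

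Only 3 lincRNAs rose. AC020661.1 (ENSG00000251161, chr15:40906811-40910337, plus strand), a lincRNA annotated with 2 exons, lies 2836 bases from VPS18. It had 10.5 and 10.3 CPM in RBM25_sh and 1.26 and 2.01 CPM in control_sh. It was 6.29-fold higher without overlap between the groups (2.65 ± 0.38, edgeR adjusted p = 0.0125). AL365203.2 had 16.0 and 18.1 CPM in RBM25_sh and 6.39 and 4.41 CPM in control_sh (1.66 ± 0.33, edgeR adjusted p = 0.033). Its adjusted p was 0.0692 without RBM25_sh replicate 2, and 0.0574 and 0.0522 with limma-trend on log2 FPKM (pseudocount 1 and 0.1). RBFADN had 5.09 and 4.14 CPM in RBM25_sh and 0.949 and 1.23 CPM in control_sh (2.07 ± 0.44, edgeR adjusted p = 0.0403), and its adjusted p was 0.148 without RBM25_sh replicate 1. With limma-voom it was 0.0544, and with limma-trend on log2 FPKM 0.0678 and 0.0672 (pseudocount 1 and 0.1). It overlaps the coding gene AC090360.1 on the same strand (3.06 ± 0.80, edgeR adjusted p = 0.0715), so its reads are uncertain. AC020661.1 and RBFADN averaged 1.64 and 1.09 CPM in control_sh. Both thus belonged to the set only through RBM25_sh, where they were high.

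A group of lincRNAs carries miRNA hairpins in its introns or exons, from which Drosha and Dicer cut the mature miRNAs. By position, 12 of the 245 lincRNAs held 33 distinct mature miRNAs of the RefSeq table for GRCh38.p14. The host RNAs were measured here and the miRNAs were not. Sequences are shown for miRNAs that give measured hosts their names. They are joined by miR-221-3p and let-7a-5p, which each share a host and a seed with a miRNA so named. The seed (bases 2 to 8), the part that pairs with targets, is in capitals.
hsa-miR-22-3p: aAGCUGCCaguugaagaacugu
hsa-miR-34a-5p: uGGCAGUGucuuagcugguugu
hsa-miR-221-3p: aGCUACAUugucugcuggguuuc
hsa-miR-222-3p: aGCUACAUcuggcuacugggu
hsa-let-7a-5p: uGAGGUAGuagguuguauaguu
hsa-let-7b-5p: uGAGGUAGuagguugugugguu
hsa-miR-210-3p: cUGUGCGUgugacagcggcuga
hsa-miR-4435: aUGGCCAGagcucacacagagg
In this set miR-221-3p and miR-222-3p share the seed GCUACAU and are both hosted by MIR222HG, and let-7a-5p and let-7b-5p share GAGGUAG and are both hosted by MIRLET7BHG. The hairpins of miR-4435 lie in MIR4435-2HG and, as a second copy, in CYTOR, and their mature sequences are identical.

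None of the 12 hosts was called by edgeR in the main test, and 3 had an unadjusted p under 0.05 (25%, against 21.4% of all genes tested). One was MIR22HG (ENSG00000186594, chr17:1711493-1717174, minus strand), the host of miR-22, with 18.6 and 14.9 CPM in RBM25_sh and 3.98 and 7.20 CPM in control_sh. Its groups did not overlap, and the fold change of 1.58 ± 0.37 lay just outside the threshold (edgeR adjusted p = 0.0513). With DESeq2 size factors the edgeR adjusted p was 0.0477, and after the GC correction it was 0.00524. MIR22HG overlaps WDR81 on the opposite strand, which stood at −0.07 and was not called. MIR4435-2HG, near-identical to CYTOR in sequence, had 31.2 and 31.1 CPM in RBM25_sh and 23.0 and 20.5 CPM in control_sh (0.52 ± 0.28, edgeR adjusted p = 0.321). Reads shared by these copies could be counted for either, and the pair had the same direction.

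MIR222HG had 12.9 and 8.22 CPM in RBM25_sh and 12.9 and 15.1 CPM in control_sh (−0.41 ± 0.33). MIRLET7BHG had 2.81 and 4.97 CPM in RBM25_sh and 4.11 and 8.31 CPM in control_sh, with replicate 2 the higher in both groups. MIR210HG had 4.69 and 5.16 CPM in RBM25_sh and 2.53 and 6.47 CPM in control_sh, so its replicates of control_sh bracket both RBM25_sh values. None of these 3 passed the test, with edgeR adjusted p of 0.513, 0.426 and 0.907. The hosts known only by clone names were the other two with an unadjusted p under 0.05. AC016831.6, in which the hairpins of miR-29a and miR-29b lie, had 11.3 and 6.50 CPM in RBM25_sh and 4.24 and 4.18 CPM in control_sh (1.07 ± 0.37, edgeR adjusted p = 0.142). It overlaps both LINC-PINT rows on the same strand, so its reads are uncertain. AC016205.1, with the hairpin of miR-924, had 1.61 and 2.42 CPM in RBM25_sh and 5.95 and 3.63 CPM in control_sh (−1.24 ± 0.44, edgeR adjusted p = 0.149). MUC20-OT1 was at 0.20 ± 0.28. After the GC correction 3 of the 12 were called higher (MIR22HG, MIR4435-2HG and AC016831.6) and 1 lower (AC016205.1). Of 11 miRNA processing factors 0 were called by edgeR in either direction, with 3 at an unadjusted p under 0.05, where 21.4% of all genes tested lay. DICER1 had 203 and 172 CPM in RBM25_sh and 106 and 69.0 CPM in control_sh (edgeR adjusted p = 0.0833). DGCR8 stood at 0.74 ± 0.28 and the Argonaute gene AGO4 at −0.91 ± 0.29. After the GC correction 2 were higher (DICER1 and DGCR8, 18.2%) and 3 lower (AGO1, AGO4 and PRKRA, 27.3%), against the 11.3% higher and 16.5% lower of all genes tested.

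Many lincRNAs start back to back with a coding gene, from a shared stretch of open chromatin. Of the 245, 55 had a tested coding gene that starts on the opposite strand within 1000 bases. Among these 4 lincRNAs fell and 0 rose, a share of 7.27% against 11.6% in the other 190. The median fold change was −0.48 for the 55 lincRNAs and 0.09 for their partners. LincRNA and partner had the same sign in 25 of 55 pairs, and Spearman's rho across the 55 pairs was 0.0015, given as a description of values that share libraries.

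In 1 of the 4 pairs with a lincRNA that fell, the coding partner fell as well. AL365181.2 and BCAN, the gene of the neural matrix protein brevican, start 386 bases apart and both fell. BCAN had 1.68 and 1.91 CPM in RBM25_sh and 13.7 and 19.7 CPM in control_sh (−3.21 ± 0.37, edgeR adjusted p = 0.00626), close to the −3.20 of AL365181.2. In the other 3 pairs the coding partner was not called. FLJ42351 was at −2.47 and its partner SLC20A1, a phosphate transporter gene, at 0.18 ± 0.27. OSER1-DT was at −1.89 ± 0.42 and OSER1 at 0.30 ± 0.27. NUP50-DT was at −1.69 ± 0.38 and NUP50, the gene of a nuclear pore protein, at 0.65 ± 0.28 (edgeR adjusted p = 0.217). NUP50-DT overlaps the tested gene Z82243.1 on the same strand, so its reads are uncertain. Its fold change spanned −2.03 to −1.38 with any single library left out. The reverse case, a partner that was called beside a lincRNA that was not, was INSIG1 (1.48), a sterol sensor gene, next to AC144652.1 (0.24). OSER1-DT and NUP50-DT were chosen for naming after their values were seen.

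**Figure D4:**
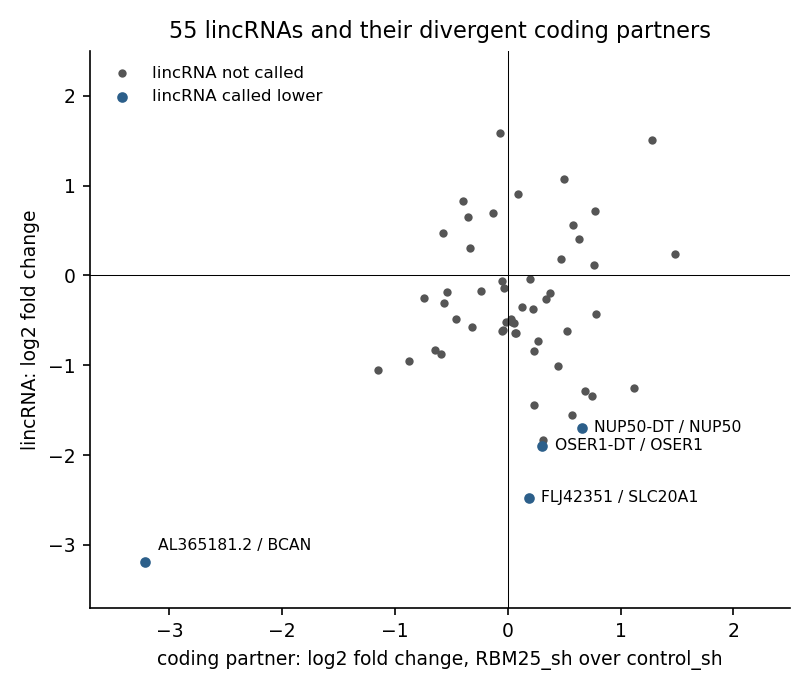
Each point is 1 of 55 pairs, with the log2 fold change (RBM25_sh over control_sh) of the coding gene on the horizontal axis and of its divergent lincRNA on the vertical axis. The 4 lincRNAs that fell are in blue; AL365181.2 and BCAN lie near −3.2 on both axes, and the other 3 partners lie above 0.

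The RefSeq table for GRCh38.p14 gave promoter windows, from 250 bases before to 50 after the start, for 81 of the 245 lincRNAs and 11 of the 26 that fell. The windows of NUP50-DT (chr22:45163732-45164031, minus strand) and OSER1-DT (chr20:44210710-44211009, plus strand) are printed because each holds the start of a lincRNA that fell and of a coding gene that did not. In the NUP50-DT window NUP50 starts at base 191 on the other strand and the lincRNA at base 251, and in the OSER1-DT window OSER1 starts at base 82 and the lincRNA at base 251. Capitals mark CACGTG, the E-box, which each window holds once, after the lincRNA start.
NUP50-DT: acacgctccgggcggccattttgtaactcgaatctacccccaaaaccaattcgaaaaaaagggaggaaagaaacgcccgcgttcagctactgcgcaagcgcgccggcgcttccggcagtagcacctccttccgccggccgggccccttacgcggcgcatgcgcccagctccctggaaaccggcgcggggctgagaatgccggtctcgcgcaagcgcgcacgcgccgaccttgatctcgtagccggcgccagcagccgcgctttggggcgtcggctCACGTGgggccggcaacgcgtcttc
OSER1-DT: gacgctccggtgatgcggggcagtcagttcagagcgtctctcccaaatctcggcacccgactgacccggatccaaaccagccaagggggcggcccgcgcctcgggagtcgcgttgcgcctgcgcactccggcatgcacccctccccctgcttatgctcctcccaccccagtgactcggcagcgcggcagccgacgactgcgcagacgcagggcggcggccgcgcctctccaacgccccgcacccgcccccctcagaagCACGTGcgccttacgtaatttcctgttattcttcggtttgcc
On both strands CACGTG was found in 2 of the 11 windows of lincRNAs that fell, in 6 of 81 lincRNA windows (7.41%) and in 7.26% of all 35116 windows. TGATGNAA, the letters of an ATF4-type element, was found in 1 of the 11 and in 3.62% of all windows. That match was in the window of LNCAROD, whose RefSeq start lies 284876 bases from its GENCODE start. GAANNTTC, of the heat shock type, was found in 0 of the 11 and in 6.77% of all, and TATAAA in 1 of the 11 (LINC02458) and in 11.5% of all. These are matches of letters only, and their shares in lincRNA windows lay near those of all windows.

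RBM25 is known to bind the exonic element CGGGCA, described in BCL2L1, so the sense strand of each gene's longest GENCODE release 29 transcript was searched for these letters. They occurred in 65 of the 245 lincRNAs (26.5%) and in 41.1% of all genes tested. The median listed gene length was 2716 for the lincRNAs and 4473 for all. Per 1000 bases there were 0.123 matches in the lincRNAs, 0.043 in the 26 that fell and 0.179 in all genes tested. Of the 26 lincRNAs that fell, 3 held the element, which are NEAT1, AL365181.2 and NUP50-DT. The matches in NEAT1 and AL365181.2 are printed with 10 bases on each side and the element in capitals, to show their context. NEAT1 has 1 match at base 5727 of 22743 and AL365181.2 has 1 at base 2566 of 3222.
NEAT1: tggtgcagtgCGGGCAtgaaatgaag
AL365181.2: aggccctgcaCGGGCAtctgggtctt
Among the 3 that rose, RBFADN held 1 match. UCA1, OLMALINC and LINC00941 held none in their longest transcripts, and most lincRNAs that fell did not contain these letters.

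Most decreases were in lincRNAs annotated with more than 1 exon. A gene's exon number is the largest of any of its annotated transcripts, so it does not show that the measured RNA was spliced. NEAT1, for example, counts as having 3 exons. Of the 179 lincRNAs with more than 1 exon in GENCODE release 29, 24 fell (13.4%) and 2 rose, with a median log2 fold change of −0.52. Of the 66 with 1 exon, 2 fell (3.03%) and 1 rose, with a median of −0.12. Over all genes tested, 2.52% of those with more than 1 exon and 1.04% of the 1351 with 1 exon were called lower. Their medians were −0.05 with more than 1 exon and 0.15 with 1 exon. The 2 single-exon lincRNAs that fell were AL365181.2 and AC026401.3, which lie beside BCAN and inside NDE1, and the 1 that rose was AL365203.2. NORAD, the most abundant single-exon lincRNA, was among those that did not pass. Whether the exon classes differ was not tested.

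**Figure D5:**
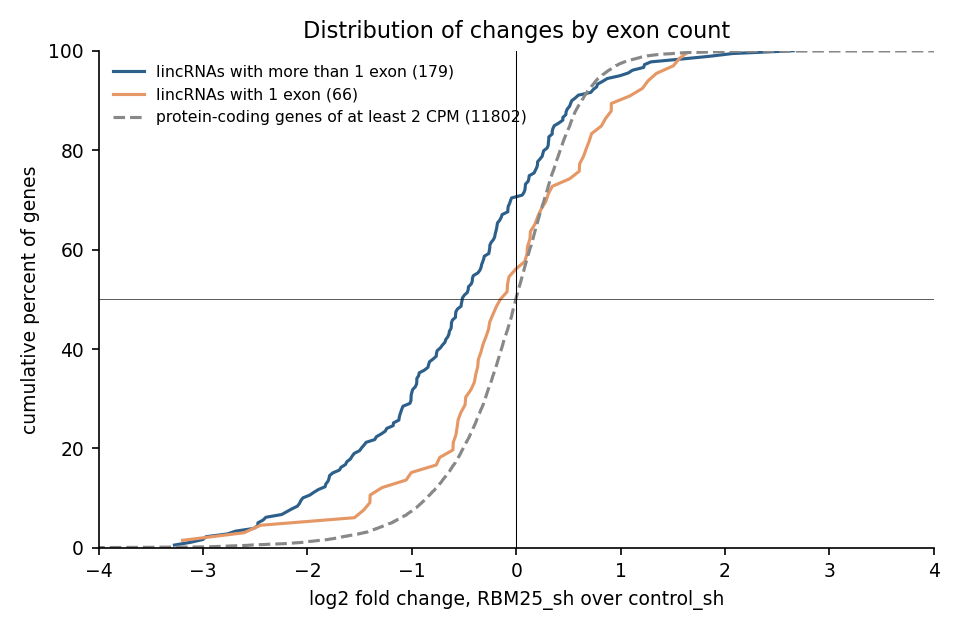
Cumulative percent of genes at or below each log2 fold change (RBM25_sh over control_sh), for 179 lincRNAs with more than 1 exon, 66 with 1 exon, and 11802 protein-coding genes of at least 2 CPM. The curve of lincRNAs with more than 1 exon lies to the left of the others around the medians. The medians were −0.52 with more than 1 exon and −0.12 with 1 exon.

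By level, 13 of 148 lincRNAs of 2 to 5 CPM fell (8.78%), 5 of 51 of 5 to 10 CPM (9.80%) and 8 of 46 of at least 10 CPM (17.4%), so decreases were not limited to the least counted genes. The lincRNAs that fell had a median GC content of 44.9%, against 47.0% in the whole set and 48.7% in all genes tested. Other noncoding classes of at least 2 CPM were also lower on balance. Of 287 antisense genes 5.92% fell and 0.697% rose (median −0.21), and of 82 processed transcripts 6.10% fell and 0 rose (median −0.46). By name, 16 of 122 lincRNAs with an approved symbol or other name fell and 10 of 123 known only by a clone name.

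Further lincRNAs passed only after the GC correction. The largest such decreases were AL022322.1 (−2.65), AC112493.1 (−2.33), LINC00861 (−2.01), AL121772.1 (−1.96) and AF117829.1 (−1.76), whose edgeR adjusted p before the correction lay between 0.0581 and 0.113. AL022322.1 had 1 and 17 counts in RBM25_sh and 57 and 64 in control_sh, so its low side rests on few counts. AL022322.1, AC112493.1, LINC00861 and AL121772.1 averaged 0.575, 0.799, 1.52 and 0.845 CPM in RBM25_sh. These thus belonged to the set only through control_sh. The largest such increases were AC010536.1 (1.69), LINC02019 (1.64), MIR22HG (1.56), AC012313.8 (1.52) and BX284668.2 (1.43). LINC02019 had 4.02 and 2.87 CPM in RBM25_sh and 0.949 and 0.948 CPM in control_sh. LINC02019 and BX284668.2, which averaged 1.69 CPM in control_sh, belonged to the set only through RBM25_sh. Of the abundant lincRNAs that did not pass at first, EBLN3P, a pseudogene of bornavirus origin, was lower after the correction (−0.62, edgeR adjusted p = 0.00584). It had 84.4 and 74.1 CPM in RBM25_sh and 123 and 89.4 CPM in control_sh. AC105460.1 was also lower after the correction (−0.62, edgeR adjusted p = 0.00874), from 44.3 and 37.0 CPM in RBM25_sh and 62.9 and 54.1 CPM in control_sh.

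At the level that bounds the set, AC055713.1 (mean of 2.004 CPM) and C10orf91 (2.001 CPM) were just inside, and LINC01410 (1.998 CPM) and AC011978.2 (1.989 CPM) just outside. AC055713.1 had 20 and 29 counts in RBM25_sh and 33 and 48 counts in control_sh, and C10orf91 had 42 and 36 counts in RBM25_sh and 17 and 34 counts in control_sh. LINC01410 had 30 and 25 counts in RBM25_sh and 42 and 31 counts in control_sh, and AC011978.2 had 57 and 22 counts in RBM25_sh and 31 and 16 counts in control_sh. Genes at this level thus rested on 16 to 57 counts per library.

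Proteins that build, process or degrade these RNAs were read from lists of coding genes. The counts below stand against the 21.4% of all genes tested with an unadjusted p under 0.05, and against 11.3% higher and 16.5% lower after the GC correction. None of 18 paraspeckle protein genes was called by edgeR, 3 had an unadjusted p under 0.05, and the median was 0.18. SFPQ, an essential paraspeckle protein, had 524 and 528 CPM in RBM25_sh and 312 and 276 CPM in control_sh (0.84 ± 0.26, edgeR adjusted p = 0.111). TAF15 had 122 and 124 CPM in RBM25_sh and 194 and 363 CPM in control_sh (−1.18 ± 0.33, edgeR adjusted p = 0.0873). SFPQ and TAF15 did not overlap between groups and differed in direction. NONO, the partner of SFPQ, stood at 0.17 ± 0.26, and RBM14, which paraspeckles need for assembly, at 0.70 ± 0.31. After the GC correction SFPQ and RBM14 were called higher and TAF15 and RBM3 lower (11.1% each), so neither share was above that of all genes.

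None of 18 genes of the nuclear exosome and its NEXT and PAXT adaptors, which degrade unstable nuclear RNAs, was called by edgeR, with 4 at an unadjusted p under 0.05 and a median of 0.22. EXOSC2 had 85.2 and 77.4 CPM in RBM25_sh and 44.1 and 48.1 CPM in control_sh (0.82 ± 0.27, edgeR adjusted p = 0.124), EXOSC3 stood at 0.74 ± 0.28 and EXOSC8 at −0.63 ± 0.28. MTREX, the helicase of both adaptors, was at 0.35 ± 0.32. After the correction 3 were higher and 3 lower (16.7% each), near the shares of all genes, among the lower ZCCHC8, the NEXT scaffold (−0.63). Of 12 genes that process or stabilise the MALAT1 end, mainly subunits of RNase P, 0 were called, 3 had an unadjusted p under 0.05 and 11 lay above 0, with a median of 0.53. POP1 (0.91 ± 0.27) and RPP40 (1.13 ± 0.35) were the largest of these with edgeR adjusted p of 0.104 and 0.111. METTL16, which binds the MALAT1 triple helix, stood at 0.55 ± 0.27, and after the GC correction 5 of the 12 were higher (41.7%) and 0 lower.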

How the data were processed

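RNA of 4 HCT116 libraries was grouped by the sample titles into RBM25_sh and control_sh. Whole-number counts per gene were deposited, with FPKM per gene in separate deposited tables made by the authors. The submitters' processing notes name Cuffdiff 2.1.1, Cufflinks 2.1.1, TopHat2 2.0.9 and Bowtie2 2.0.6, while the sources used here do not give the counter, its strand setting or the build. Positions of all 58735 gene IDs equal GENCODE release 29 on GRCh38. No member's name was among the 27 names held as dates. LINC-PINT and LINC00941 name 2 rows each, and the member row is meant.

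Counts were fitted with edgeR 4.0.16 in R 4.3.3 (filterByExpr, TMM, group only, 2 residual degrees of freedom, two-sided quasi-likelihood F test, Benjamini-Hochberg over all genes tested). The GC correction removed each library's lowess trend (span 0.3) of log2 CPM against transcript GC content, as edgeR offsets. DESeq2 1.42.0 and limma 3.58.1 gave alternatives, and figures were drawn with matplotlib 3.10.9. The fit was tested on simulated data for this comparison (16000 genes). It called 66 of 100 genes given a 2-fold change, 99 of 100 given a 4-fold change, and 11 given none. With a simulated GC trend of opposite sign in replicates 1 and 2 (15982 genes), it called 0, 77 and 0 without the GC correction and 74, 100 and 8 with it. Apart from that trend, the simulated dispersion was below that of the main fit (common coefficient of variation of 0.252). Changed genes were drawn from all genes above 2 CPM. The rates were not measured for lincRNAs alone, whose median level was 4.10 CPM.

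The members, the gene lists, the GC correction and the rule for named genes were chosen with earlier results of these data known. The rule takes up to 12 called members per direction by size, the 10 highest in CPM and 5 in FPKM, all measured lincRNAs of the lists, 5 per direction called only after the GC correction, and 2 on each side of the level of 2 CPM.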

Additional observations from a re-analysis of the deposited data

How the results depend on the processing

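The main count of called lincRNAs was 29, and it moved to 56 with no filter on low counts, 92 with the GC correction, 17 and 18 with limma-trend on FPKM (pseudocount 1 and 0.1, log2), and 15 of 97 with a mean level of at least 5 CPM. Leaving out 1 library gave 21 to 63. Their median log2 fold change of −0.37 became −0.47 with library totals only, where the median of all genes shifted to −0.15, and −0.19 with log2 of FPKM plus 1. The other settings for the median gave −0.30 to −0.44. Over all genes the main count was 491, and it was 1438 with no filter, 4480 with the GC correction, 1085 with the DESeq2 Wald test, 215 and 268 on log2 FPKM, and 204 to 2389 with 1 library left out. RBM25 was at −1.96 to −1.52 with 1 library left out, and at −1.46 on log2 of FPKM plus 1 (limma adjusted p = 0.0572).

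Replicate numbers come from the titles, and no label says that a number marks a shared batch. Deviations from the group means correlated at 0.466 within the 2 pairs of equal number, so the pairing is a hint from the data only. With the replicate block 107 lincRNAs were called (29 higher, 78 lower) and 5722 genes in all, and with the replicate block and GC correction 117 and 6425. All 29 main calls were kept with the block.

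Changes of sign occurred in 5 named lincRNAs, none of them called. NORAD was at −0.0056 with library totals, −0.086 with the GC correction and −0.082 with the block and GC correction. LINC01234 was at −0.052, −0.0285 and −0.0286 under the same settings. FTX was at 0.00091 and 0.0175 on log2 FPKM. With 1 library left out, LINC01234 ranged from −0.019 to 0.16, FTX from −0.39 to 0.38, MIR210HG from −0.38 to 0.96 and LINC-PINT from −0.25 to 0.12. The cause of these shifts was not tested. Without a library, its group's lone sample was assumed to vary like the other group. On simulated data with an uncorrected GC trend, 0 of 100 2-fold changes were recovered at this group size, so uncalled lincRNAs may include changes of that size.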

Other observations

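Below the level of 2 CPM, 173 tested lincRNAs had a mean of 1 to 2 CPM. Of these 4 fell (2.31%) and 2 rose (1.16%) in RBM25_sh against control_sh by edgeR, and their median log2 fold change was −0.36. Their groups did not overlap in 72 genes with lower RBM25_sh values (41.6%, background 27.9%) and in 42 with higher ones (24.3%, background 23.9%). After the GC correction 13.9% were lower and 10.4% higher, against 16.5% and 11.3% of all genes tested. The median was thus near that of the 245 lincRNAs of at least 2 CPM, while the share that passed on the lower side was near the 2.4% of all genes tested. Of the 5 abundant lincRNA rows excluded by name, which host snoRNAs, 0 were called by edgeR, with 0 at an unadjusted p under 0.05 and 0 called after the GC correction, and 4 of the 5 lay below 0 with a median of −0.28.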
